A study of Homo sapiens with 6 samples.

Results

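Glutathione turnover was followed through 10 genes, from cystine uptake (SLC7A11) through synthesis (GCLC, GCLM, GSS), recycling (GSR) and conjugation (GSTP1) to breakdown (CHAC1, CHAC2, GGCT, GGT1), in OV2008 cells that received a miR-328-3p mimic or a negative control microRNA. The group was chosen by the measured rises of CHAC1 and SLC7A11 in this same comparison and filled with further enzymes of the pathway. Each gene was read from the transcript cluster that the platform annotation assigns to its symbol alone, the one with the highest mean over the 6 arrays. That gave 9 of the 10 genes, with 1 probe set each, among 18836 genes tested. GGT1, the cell surface enzyme that starts glutathione breakdown outside the cell, was not analysed here.

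The study compared 3 arrays of cells transfected with the miR-328-3p mimic with 3 arrays of cells transfected with the negative control microRNA, both taken 3 days after transfection. OV2008 cells are an established human line, and the labels give ovarian cancer as their cell type. The 6 epithelial markers averaged between 6.18 and 14.99 on the mimic arrays and between 6.09 and 14.76 on the control arrays, with KRT7 the lowest and KRT8 the highest in both. Of these, 4 were higher on the mimic arrays past an adjusted p of 0.05 in limma's fit, CDH1 by 0.66, KRT18 by 0.32, KRT8 by 0.23 and KRT19 by 0.20, while EPCAM at 0.07 and KRT7 at 0.09 did not pass. Among all genes tested, 18.0% passed, with 7.21% higher. Of the 3 squamous and cervical markers, SFN was higher by 0.86, to 14.75 on the mimic arrays, against 13.90 on the control arrays. KRT5 averaged 17.00 on the mimic arrays and 17.03 on the control arrays, KRT14 averaged 5.45 and 5.14, and neither passed. The 6 Müllerian and ovarian markers PAX8, WT1, MUC16, EMX2, SOX17 and MSLN averaged between 3.16 and 4.38 on the mimic arrays and between 3.18 and 4.33 on the control arrays, around the array medians of 4.14 to 4.17 and 4.10 to 4.14. The ovarian label is thus not borne out by these 6 markers. Of the squamous and cervical markers, KRT5 and SFN read high, while KRT14 read much lower, at 5.45 and 5.14. TP63 and KRT6A of the same marker list were not analysed here. The origin of the line was not tested. Fibroblast markers averaged 3.64 to 4.39 on the mimic arrays and 3.67 to 4.30 on the control arrays, leukocyte markers 3.44 to 4.19 and 3.25 to 4.11, and endothelial markers 3.05 to 4.80 and 2.93 to 5.48, where the highest was CDH5, which fell by 0.68. Whether these marker differences have a part in the results on glutathione genes was not tested. All values are on what is taken as a log2 scale, a base inferred from their range, so every fold holds on that scale only. Whether the samples came from separate cultures is not stated in the labels, so errors and p-values cover only the spread among these 6 samples and may be technical in origin. Titles and source names give miR328 for the mimic samples and were followed, although the description field of those samples names the control. No untransfected cells were analysed here.

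Glutathione is the main small thiol of the cell, and its supply is limited by cysteine, which most cultured cells take up as cystine. Glutamate-cysteine ligase joins cysteine to glutamate, glutathione synthetase adds glycine, and glutathione reductase returns the oxidised dimer to the reduced form with NADPH. Inside the cell glutathione is cleaved by the ChaC enzymes, while the transcription factors ATF4 and NRF2 are known to drive several genes of the pathway, ATF4 in amino acid and endoplasmic reticulum stress and NRF2 in oxidative stress.

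The mature microRNA that the mimic copies is shown first, with its seed (bases 2 to 8) in capitals, because pairing with the seed is how a microRNA chooses its targets. The mature sequence lies at chr16:67202327-67202348 on the minus strand of GRCh38.p14, and no other mature sequence of the 2545 in the RefSeq table carries the same seed.
hsa-miR-328-3p: cUGGCCCUcucugcccuuccgu

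Promoter windows of 300 bases, from 250 before to 50 after the gene's start, were searched on both strands for the C/EBP-ATF response element core TGATGNAA, to which ATF4 binds, the cAMP response element core TGACGT, and the antioxidant response element core TGACNNNGC, to which NRF2 binds. The cAMP and the antioxidant core can overlap where a site reads as both. The RefSeq table (GRCh38.p14) held 8 windows for 6 of the 10 genes, CHAC1, CHAC2, GCLC, GCLM, GSTP1 and GGT1. Windows of 3 genes are printed because they hold a motif match and belong to measured genes that did and did not rise, with the matches in capitals.
CHAC1 (chr15:40953221-40953520, plus strand): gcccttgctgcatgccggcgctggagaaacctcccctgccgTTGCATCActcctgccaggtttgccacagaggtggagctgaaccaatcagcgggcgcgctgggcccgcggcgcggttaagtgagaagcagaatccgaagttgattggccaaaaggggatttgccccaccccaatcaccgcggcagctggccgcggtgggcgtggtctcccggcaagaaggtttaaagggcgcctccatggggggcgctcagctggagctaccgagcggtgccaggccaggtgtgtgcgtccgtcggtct
GCLM (chr1:93909381-93909680, minus strand): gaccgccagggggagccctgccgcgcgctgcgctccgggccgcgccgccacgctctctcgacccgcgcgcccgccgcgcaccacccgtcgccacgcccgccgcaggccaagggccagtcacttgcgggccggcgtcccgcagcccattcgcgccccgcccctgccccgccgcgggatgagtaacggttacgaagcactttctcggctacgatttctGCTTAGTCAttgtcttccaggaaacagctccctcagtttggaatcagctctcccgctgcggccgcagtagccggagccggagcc
GSTP1 (chr11:67583562-67583861, plus strand): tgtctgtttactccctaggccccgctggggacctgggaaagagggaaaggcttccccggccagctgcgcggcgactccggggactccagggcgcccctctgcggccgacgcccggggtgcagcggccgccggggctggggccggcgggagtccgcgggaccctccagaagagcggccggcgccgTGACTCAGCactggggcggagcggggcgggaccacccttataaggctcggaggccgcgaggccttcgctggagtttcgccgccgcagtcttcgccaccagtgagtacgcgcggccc

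The CHAC1 window held 1 C/EBP-ATF core, written on the opposite strand, at positions -209 to -202 from the start, where 3.62% of all 35116 promoter windows of the table hold this motif. The GCLM window held 1 antioxidant core on the opposite strand at -34 to -26, and the GSTP1 window held 1 as printed at -66 to -58, where 13.3% of all windows hold it. One of the 2 windows of GGT1 also held an antioxidant core, at -29 to -21. No window of these genes held the cAMP response element core, which 7.98% of all windows hold. The windows of GCLC and CHAC2 held none of the 3 motifs, which says only that these letters are not in those windows. A match is a description of the sequence, and binding was not measured.

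Of the 9 measured genes, 3 were higher on the mimic arrays, 2 were lower and 4 did not pass an adjusted p of 0.05 in limma's fit over all probe sets. That is 5 of 9 past the threshold, where 18.0% of all genes passed, with 7.21% higher and 10.8% lower. Because CHAC1 and SLC7A11 were selected on this comparison, these counts are a description, and so are the adjusted p-values given for the members, all of which come from limma over the whole table. The median log2 difference of the 9 genes was 0.01 and that of all genes tested was also 0.01. In these bulk samples, fewer cells that express a gene and less RNA per cell cannot be told apart. The mimic and control arrays did not overlap for 6 of the 9 genes, where they did not overlap for 41.6% of all genes.

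**Figure D1:**
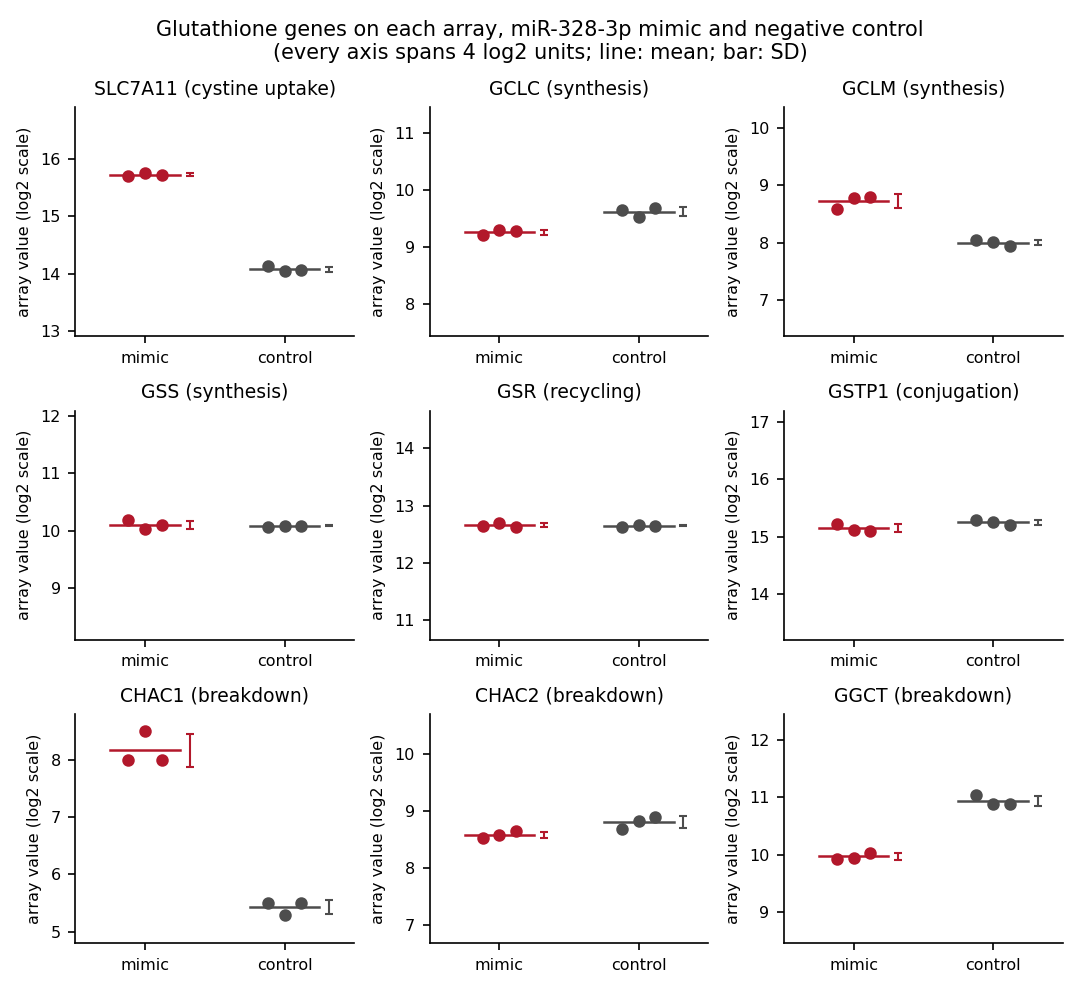
Array values (log2 scale) of the 9 measured glutathione genes, 1 panel per gene, with mimic arrays in red on the left and control arrays in grey on the right; points are single arrays, lines group means and bars 1 SD (n = 3 each), and every axis spans the same range. CHAC1, SLC7A11 and GCLM lie higher on all 3 mimic arrays, GGCT and GCLC lower, and GSS, GSR and GSTP1 overlap between the groups.

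The transcript of the cystine transporter SLC7A11 was higher on the mimic arrays, and uptake itself was not measured. SLC7A11 encodes xCT, the chain of the plasma membrane exchanger that brings in cystine for glutamate. It read 15.71, 15.76 and 15.72 on the mimic arrays, against 14.13, 14.04 and 14.06 on the control arrays. All 3 mimic arrays lay above all 3 control arrays with a gap of 1.58, and neither group spread over more than 0.0849. The difference was 1.65 ± 0.0393 (SE), which is 3.14-fold on this scale with a 95% interval of 2.95 to 3.36 and an adjusted p of 4.56e-05. SLC7A11 ranked 11th among the rises of all 18836 genes. SLC3A2, named here after its value was seen because it is the heavy chain that anchors xCT in the membrane, stood at 0.08 ± 0.0467 (SE) and did not pass (adjusted p = 0.352).

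The subunits of glutamate-cysteine ligase, the rate-limiting enzyme of glutathione synthesis, went opposite ways. GCLM, the modifier subunit that raises the enzyme's affinity for glutamate, read 8.58, 8.78 and 8.79 on the mimic arrays, against 8.04, 8.01 and 7.94 on the control arrays. It was higher on every mimic array, by 0.72 ± 0.0714 (SE) or 1.64-fold (95% interval 1.46 to 1.85, adjusted p = 0.00167), with the lowest mimic value on array 1. GCLC, the catalytic subunit, read 9.21, 9.30 and 9.28 on the mimic arrays, against 9.64, 9.53 and 9.68 on the control arrays. It was lower on every mimic array, with a gap of 0.24 between the groups, and fell by 0.35 ± 0.0553 (SE) on the log2 scale, a ratio of 0.783 (95% interval 0.714 to 0.858, adjusted p = 0.00922). GSS, the synthetase that adds glycine in the next step, read 10.18, 10.03 and 10.10 on the mimic arrays, against 10.07, 10.09 and 10.09 on the control arrays. Its groups overlapped, and the 95% interval of the ratio ran from 0.932 to 1.1 around a log2 difference of 0.02 (adjusted p = 0.885).

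Recycling and conjugation genes did not pass. GSR, glutathione reductase, read 12.64, 12.70 and 12.63 on the mimic arrays, against 12.63, 12.66 and 12.65 on the control arrays. The groups overlapped, with a log2 difference of 0.01 and a 95% interval of the ratio from 0.945 to 1.07 (adjusted p = 0.923). GSTP1, the pi-class transferase that couples glutathione to electrophiles, read 15.22, 15.12 and 15.10 on the mimic arrays, against 15.29, 15.25 and 15.21 on the control arrays. Mimic array 1 lay just above control array 3, and the difference was -0.10 ± 0.0473 (SE), with a 95% interval of the ratio from 0.862 to 1.01 (adjusted p = 0.261). A p above the threshold does not show that the levels of these genes, or of GSS, were alike.

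Among the breakdown enzymes CHAC1 rose, GGCT fell and CHAC2 did not pass. CHAC1, a cytosolic enzyme that cleaves glutathione into 5-oxoproline and cysteinylglycine and that ATF4 is known to induce, read 8.00, 8.50 and 8.00 on the mimic arrays, against 5.50, 5.29 and 5.50 on the control arrays. The groups were separated by 2.49, although CHAC1 also had the widest spread of the 9 genes among the mimic arrays (SD 0.291, n = 3), with array 2 standing above the other two. Its difference of 2.74 ± 0.15 (SE), or 6.66-fold with a 95% interval of 5.19 to 8.55 (adjusted p = 0.000232), was the 1st in rank among the rises of all genes tested. Without mimic array 2 the difference was 2.57. On the control arrays CHAC1 lay little above the array medians of 4.10 to 4.14, and the part of background signal in its ratio was not tested.

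CHAC2, the sister enzyme that cleaves glutathione more slowly, read 8.53, 8.57 and 8.64 on the mimic arrays, against 8.69, 8.83 and 8.89 on the control arrays. The groups did not overlap, but the gap was only 0.05, and the difference of -0.23 ± 0.0662 (SE) did not pass (adjusted p = 0.0837), although its unadjusted 95% interval in limma's fit, -0.39 to -0.07, leaves out 0. Without control array 1, the lowest of its group, the difference was -0.28 and passed at an adjusted p of 0.04. GGCT, which acts on gamma-glutamyl amino acids and releases 5-oxoproline, read 9.92, 9.95 and 10.03 on the mimic arrays, against 11.04, 10.89 and 10.89 on the control arrays. Every mimic array was lower, with a gap of 0.86, and the gene fell by 0.97 ± 0.0583 (SE), a ratio of 0.51 with a 95% interval of 0.463 to 0.562 (adjusted p = 0.000297). Its fall ranked 75th among all genes.

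**Figure D2:**
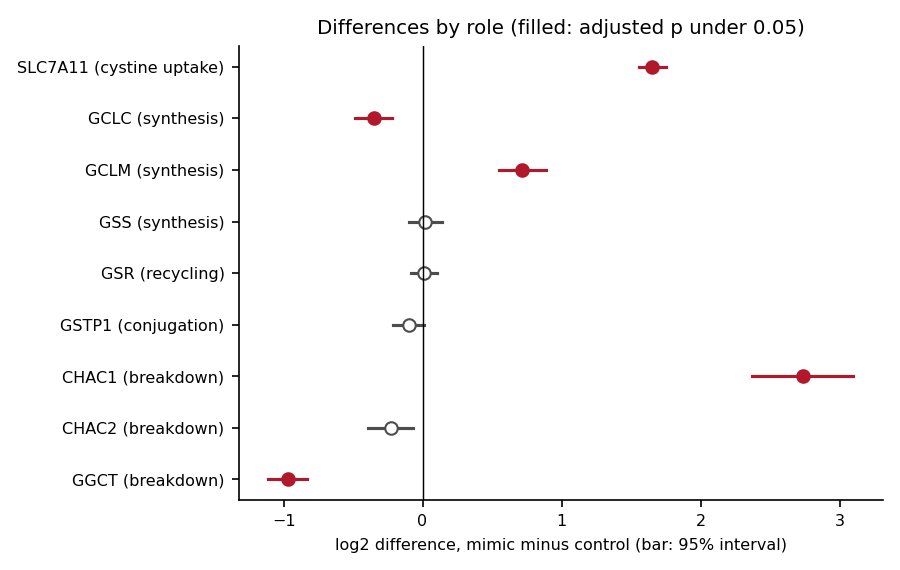
Log2 difference, mimic minus control, of each measured gene with its 95% interval, ordered from uptake to breakdown; filled points passed an adjusted p of 0.05 and open points did not. CHAC1 at 2.74, SLC7A11 at 1.65 and GCLM at 0.72 lie right of 0, GGCT at -0.97 and GCLC at -0.35 lie left of it, and the intervals of GSS, GSR and GSTP1 cross it.

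Set against the whole table, the 9 genes were widely spread. Of all genes tested, 5% lay below -0.44 and 5% above 0.38. CHAC1, SLC7A11 and GCLM lay above that range, GGCT lay below it, and GCLC, CHAC2, GSTP1, GSS and GSR lay within it. A total of 124 genes passed with a change of at least 2-fold in either direction, among them CHAC1 and SLC7A11, and GGCT at 0.51 stayed just short of that size.

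**Figure D3:**
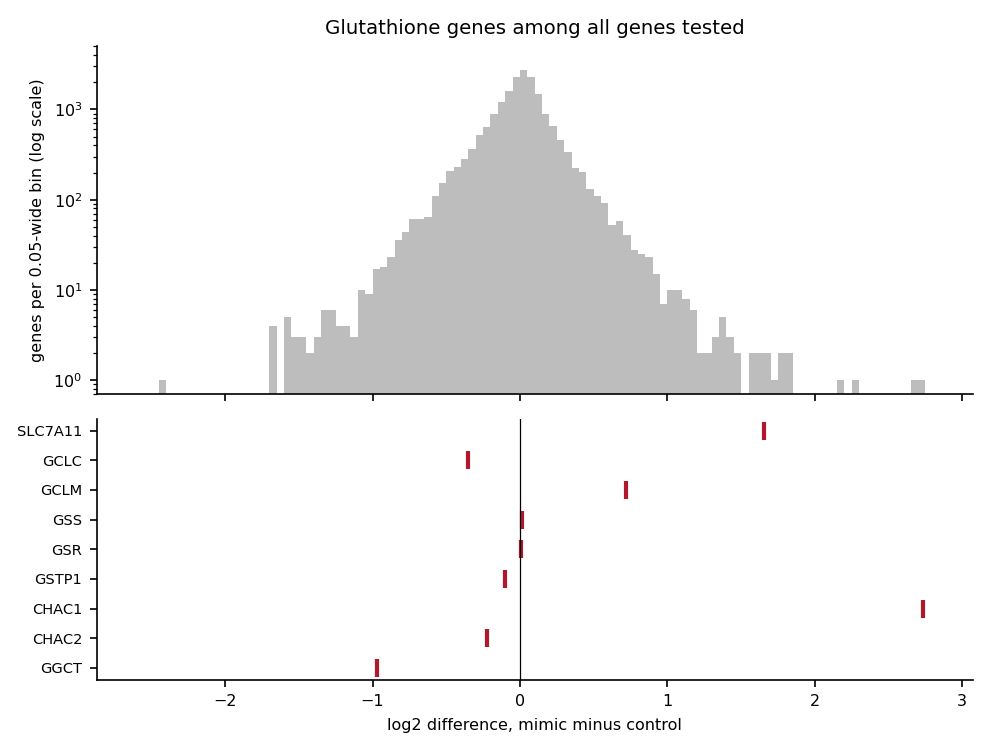
Upper panel, number of genes per 0.05-wide bin of log2 difference, mimic minus control (log axis, 18836 genes); lower panel, the 9 measured glutathione genes on the same horizontal axis. CHAC1 at 2.74 stands at the right end of all genes, SLC7A11 at 1.65 in the sparse right tail, and GSS and GSR near 0.

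Profiles over the 6 arrays, centred on each gene's own mean, were compared with those of 15083 genes. The RefSeq table types these genes as protein-coding or does not list them. Closest to CHAC1 were the aldo-keto reductase AKR1C2, whose probes may also read its near-identical relative AKR1C1, the secreted stress factor GDF15 and the mitophagy receptor BNIP3. Their root mean square differences from CHAC1 were 0.23, 0.29 and 0.33 on the log2 scale. Closest to SLC7A11 were ERRFI1, which inhibits the EGF receptor, at 0.0367, the Krüppel-like factor KLF7 at 0.0642 and PSMD3, a subunit of the proteasome, at 0.0723. With 2 groups of arrays this measure mostly finds genes with a difference of the same size, and these 3 stood at 1.62, 1.64 and 1.60.

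For comparison, the nearest tested gene on each side of each of the 9 members was read, in the order of the RefSeq table. These neighbours were chosen after values were seen. Genes that were not tested were skipped, and distance was not considered. Of 18 such neighbours, 4 were higher and 2 lower past the threshold, which is 33.3% where 18.0% of all genes passed, 7.21% higher and 10.8% lower, and nothing is read from a count this small. Among tested genes CHAC1 sits between the Notch ligand DLL4 at 0.00 and the chromatin remodeller INO80, which rose by 0.60 (adjusted p = 0.000711). Beside SLC7A11 its antisense transcript SLC7A11-AS1 rose by 0.48 (adjusted p = 0.00791). Whether the probes of SLC7A11-AS1 also read SLC7A11 transcripts was not tested. Next to GGCT, which fell, the glycyl-tRNA synthetase GARS1 rose by 1.08 ± 0.0436 (SE, adjusted p = 9.37e-05), while NOD1 on the other side passed at -0.31 (adjusted p = 0.0189) but kept the call in 1 of the 6 fits that left out an array, failing without control arrays 1 and 3 and without each mimic array. DNTTIP2 beside GCLM rose by 0.56, and the fatty acid elongase ELOVL5 beside GCLC fell by 0.34.

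Around these genes, 10 lists of the wider pathway were read from the same fit. Together they held 155 tested genes, with 31 higher, 30 lower and 94 short of the threshold, and a median difference of 0.03. The share past the threshold was 39.4% beside 18.0% of all genes, 7.21% higher and 10.8% lower. By list it ran from 15.4% to 68.8%. Nothing is read from these shares or from any list's counts or median, since the lists were drawn up with results of these data known. Probes may be shared within gene families such as the S-transferases, and between FTL and its pseudogenes, which was not tested. Nor was the part of background signal in the dimmer genes of these lists. Leaving out 1 array gave between 46 and 53 changed list genes in place of 61. Named below are the up to 3 largest rises and falls of each list, and of these 48 genes 37 kept their call whichever array was left out.

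Genes of cystine and cysteine supply went both ways. Past the threshold, 4 of its 31 tested genes were higher and 6 lower, leaving 21 that missed it, and the list's median was -0.01. The share that passed was 32.3%, beside 18.0% of all genes. The glutamine transporter SLC1A5 rose by 1.01 ± 0.0827 (SE, adjusted p = 0.000848), averaging 9.23 on the mimic arrays and 8.22 on the control arrays, and its relative SLC1A4 rose by 0.44. The glutamate transporter SLC1A3 fell by 1.30 ± 0.0404 (SE, adjusted p = 5.74e-05), to 13.17 on the mimic arrays, against 14.47 on the control arrays. MAT2B, the regulatory subunit of methionine adenosyltransferase, fell by 0.65 and the sulfide oxidase SQOR by 0.60. CBS, the first enzyme of transsulfuration, passed at 0.30 (adjusted p = 0.0329) but at no fit that left out an array, where its adjusted p ran from 0.0667 to 0.12.

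Of 13 other tested genes of the gamma-glutamyl cycle and of peptide cleavage, 2 were lower and 11 missed the threshold, around a median of 0.01. That share of 15.4% lies near the 18.0% of all genes. The aminopeptidase LAP3, which can split cysteinylglycine, fell by 0.62 ± 0.0685 (SE, adjusted p = 0.00239). The dipeptidase CNDP2 fell by 0.38 (adjusted p = 0.0117) and missed the threshold without control array 3 (0.051) and without mimic array 2 (0.0508), which left 1 gene of this list. Of the measured relatives of GGT1, GGT5 stood at 0.10, GGT6 at 0.09, GGT7 at 0.03, GGTLC1 at -0.04 and GGTLC2 at 0.01. None of these passed, nor did the 5-oxoprolinase OPLAH, which returns 5-oxoproline to glutamate (adjusted p = 0.991).

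Of 17 glutathione S-transferases, 1 was higher and 5 were lower, 11 missed the threshold, and the median was -0.08. Of them 35.3% passed, beside 18.0% of all genes. GSTT1 rose by 0.71 ± 0.0539 (SE, adjusted p = 0.000674), and the mitochondrial and peroxisomal GSTK1 fell by 0.88 ± 0.0631 (SE, adjusted p = 0.000548). GSTO2 fell by 0.48. GSTA4 passed at -0.35 in the full fit but in no fit that left out an array, where its adjusted p ran from 0.0638 to 0.141. Each of the 6 fits without 1 array, control arrays 1, 2 and 3 and mimic arrays 1, 2 and 3 alike, called 3 genes of this list in place of 6.

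Glutathione peroxidases, glutaredoxins and glyoxalases came to 18 tested genes, with 4 higher, 2 lower, 12 short of the threshold and a median of 0.06. Their share past it was 33.3%, beside 18.0% of all genes. With the dimmest 50% of probe sets left out before the fit, 10 of the 15 that remained passed, 5 higher and 5 lower. In the fits that left out 1 array, between 4 and 6 of the 18 passed. The peroxidases GPX2, GPX8 and GPX3 rose by 0.65, 0.55 and 0.51, and ADH5, which handles glutathione adducts of formaldehyde, fell by 0.38. GPX3 was dim, with a mean of 4.69 on the mimic arrays and 4.18 on the control arrays, whose medians were 4.10 to 4.14. The part of background signal in its difference was not tested. ESD passed at -0.15 in the full fit (adjusted p = 0.0439) but in no fit that left out an array (0.0778 to 0.152). GPX4, the peroxidase of membrane lipids, stood at 0.11 and did not pass (adjusted p = 0.147). In the thioredoxin system 2 of 9 genes were higher and 2 lower, while 5 missed the threshold and the median was 0.09. This share of 44.4% stands beside the 18.0% of all genes. The thioredoxin reductase TXNRD1 rose by 0.57, whereas the thioredoxin-binding protein TXNIP fell by 1.19 ± 0.0651 (SE, adjusted p = 0.000232) and mitochondrial thioredoxin TXN2 by 0.51. PRDX1 passed at 0.23 and kept the call in 1 of the 6 fits that left out an array, without mimic array 3.

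**Figure D4:**
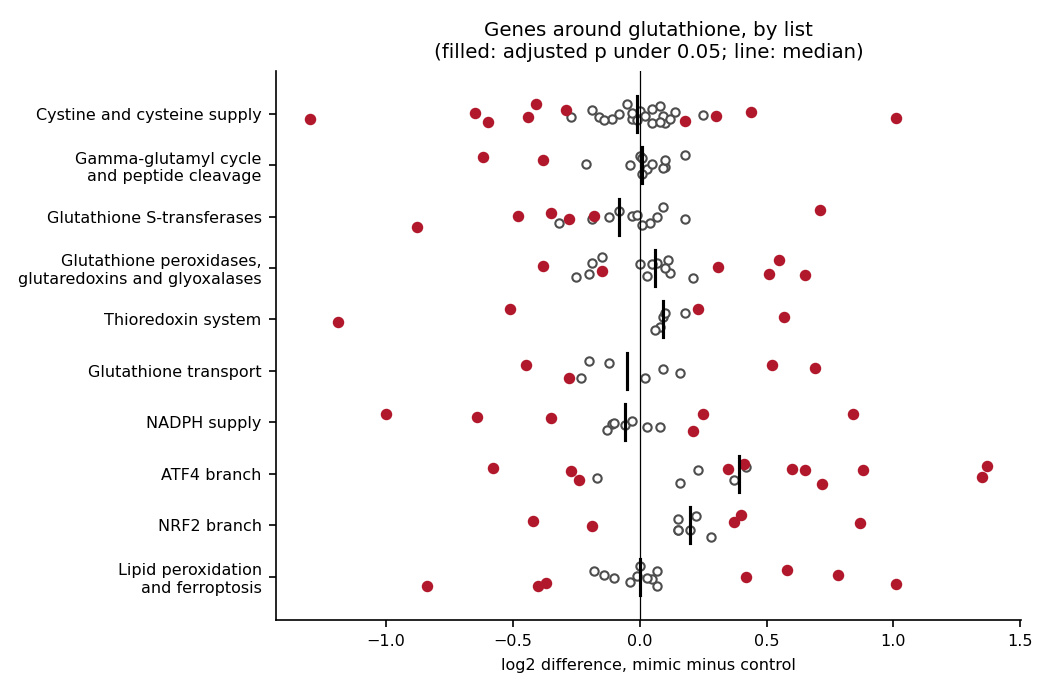
Log2 difference, mimic minus control, of every tested gene of the 10 lists, 1 row per list; filled points passed an adjusted p of 0.05, open points did not, and the black line is the list's median. The medians run from -0.08 for the transferases to 0.39 for the ATF4 branch, and both sides of 0 hold filled points in every list but the gamma-glutamyl cycle.

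Transport of glutathione and its conjugates was mixed: 2 of 10 genes were higher, 2 lower and 6 short of the threshold, around a median of -0.05. That makes 40% past it, where 18.0% of all genes passed. The conjugate pump ABCC2 rose by 0.69 and ABCG2 by 0.52, and ABCC5 fell by 0.45. On the control arrays ABCC2 averaged 5.05 and ABCG2 5.33, little above the array medians of 4.10 to 4.14. ABCC4 passed at -0.28 but kept the call in 2 of the 6 fits that left out an array, without control array 1 and without mimic array 1. In NADPH supply, on which GSR draws, 3 of 13 genes were higher and 3 lower, 7 missed the threshold, and the median was -0.06. Here 46.2% passed, where 18.0% of all genes did. Malic enzyme ME1 rose by 0.84 ± 0.0397 (SE, adjusted p = 0.000143). NNT, the mitochondrial transhydrogenase, fell by 1.00 ± 0.04 (SE, adjusted p = 9.14e-05), the pentose phosphate enzyme PGD by 0.64 and the folate enzyme MTHFD1 by 0.35. TALDO1 at 0.25 and TKT at 0.21 passed in the full fit and in 1 and 3 of the 6 fits that left out an array. TALDO1 kept the call without mimic array 3, and TKT without control arrays 1 and 2 and mimic array 3.

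Genes around the transcription factors ATF4 and NRF2 were read as separate lists. In the ATF4 branch 8 of 16 tested genes were higher, 3 lower and 5 short of the threshold, and the median was 0.39 beside the 0.01 of all genes. That is 68.8% past it, where 18.0% of all genes passed, 7.21% higher and 10.8% lower, and nothing is read from this. The phosphatase subunit PPP1R15B rose by 1.37 ± 0.0592 (SE, adjusted p = 0.000111), the transcription factor DDIT3 by 1.35 and DDIT4 by 0.88, and ATF4 itself, ATF3 and TRIB3, named after their values were seen, stood at 0.72, 0.60 and 0.41. The kinase EIF2AK4, which senses uncharged tRNA upstream of ATF4, fell by 0.58. The related kinases EIF2AK2 at -0.27 and EIF2AK1 at -0.24 passed in the full fit and in 2 and 1 of the 6 fits that left out an array. EIF2AK2 kept the call without control arrays 1 and 2, and EIF2AK1 without control array 3. In the NRF2 branch 3 of 11 tested genes were higher, 2 lower and 6 short of the threshold, around a median of 0.20. Of this list 45.5% passed, beside 18.0% of all genes. The adaptor SQSTM1 rose by 0.87, the ligase scaffold CUL3 by 0.40 and NFE2L1 by 0.37, while NFE2L2, which encodes NRF2, fell by 0.42. NQO1 passed at -0.19 and kept the call in 1 of the 6 fits that left out an array, without mimic array 1. The activity of the NRF2 and ATF4 proteins was not measured.

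Among 17 genes of lipid peroxidation and ferroptosis, the cell death that glutathione loss can trigger, 4 were higher, 3 lower and 10 short of the threshold, around a median near 0. The share past it was 41.2%, beside 18.0% of all genes. The iron store FTL rose by 1.01, the reductase CYB5R1 by 0.78 and the ubiquinone reductase AIFM2 by 0.58. GCH1, which starts tetrahydrobiopterin synthesis, fell by 0.84, the lipid synthetase ACSL4 by 0.40 and the acyltransferase LPCAT3 by 0.37.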

How the data were processed

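RNA of 6 samples was measured on whole-transcript arrays, each from 100 ng of total RNA per the labels' protocols. The deposited table gives 1 value per probe set and array, taken as log2: values run from 1.62 to 19.9, and some exceed 16, the limit of a plain log2 scanner reading. MAS5 is the only tool in the submitters' processing notes, with no role. The summarization, normalization and build behind them were not given in the sources used here, so the deposited normalization was kept.

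Of 70523 probe sets, 67528 are transcript clusters. The 25% with the lowest mean was left out, and 50646 were tested. Mimic was compared with control by limma 3.58.1 under R 4.3.3 (eBayes with a trend, two-sided, Benjamini-Hochberg over all 50646, threshold 0.05). The intervals use the fit's own degrees of freedom. Gene names came from the platform annotation, only from probe sets with 1 symbol, and where a gene had several, as 381 tested genes did, the brightest stood for it. Promoters and the microRNA are RefSeq's (GRCh38.p14). Arrays have no read depth, and 3 arrays per group limit the precision.

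The members and lists were chosen with earlier results of these data known. All members are named, as are up to 3 rises and 3 falls of each list. Genes named after their values were seen are the neighbours, SLC3A2, GGT5, GGT6, GGT7, GGTLC1, GGTLC2, OPLAH, GPX4, ATF4, ATF3 and TRIB3. List members carrying several symbols or low signal were not analysed here. An exact permutation test of 3 arrays against 3 reaches no p under 0.1 and was left out. Same-numbered mimic and control samples had deviations from their group means that correlated at 0.142, -0.050 and 0.182, so the numbers were not taken to pair them. Alternatives changed the filter, the scaling, the variance moderation, the choice of probe set and the arrays used.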

Additional observations from a re-analysis of the deposited data

How the results depend on the processing

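Under 14 alternatives each, CHAC1, SLC7A11, GCLM, GCLC and GGCT kept their direction and passed: CHAC1 ranged from 2.57 to 2.82, SLC7A11 from 1.61 to 1.68, GCLM from 0.68 to 0.79, GCLC from -0.39 to -0.32 (adjusted p up to 0.041) and GGCT from -1.01 to -0.92. The filter, the variance moderation, the replicate block and the choice of probe set cannot change a member's difference, only its adjusted p. CHAC1 and SLC7A11 were also selected on these same values. The number of members past the threshold was 5 in each alternative except without control array 1, where CHAC2 made it 6. GSS changed sign, to -0.02, with each array centred on its median and without mimic array 1, and ranged from -0.02 to 0.05 when 1 array was left out. GSR changed sign to -0.03 with centring, and to -0.01 with quantile normalization and without mimic array 2 (range -0.01 to 0.02 without 1 array), and neither gene passed in any alternative. CHAC2 ranged from -0.28 to -0.18 and GSTP1 from -0.15 to -0.08. Changed genes numbered 3392 in all and between 2105 and 2704 when 1 array was left out, with 2105 without mimic array 2 and 2193 without control array 3. With the sample number as a replicate block the fit called 2545 genes, 5 members and 49 list genes, and samples that share a number are not known to be paired. The list genes, for which the alternatives were chosen after seeing the data, numbered 46 to 53 without 1 array and 49 to 70 otherwise, against 61. With 3 arrays per group and unknown background handling, small changes of dim probe sets are the least certain.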
